A study of Mus musculus with 8 samples.

Results

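Mesothelial transcripts in sorted adipose tissue macrophages were examined as 10 genes: Msln, Upk3b, Lrrn4, Muc16, Gpm6a, Krt8, Krt18, Krt19, Wt1 and Bnc1. They were taken by symbol from the 18040 genes listed for either diet, and all 10 were listed for both. RNA-seq had been run on 8 libraries from the epididymal white adipose tissue (eWAT) of wild-type C57BL/6J male mice, with 2 libraries in every one of the 4 combinations of diet and cell type. From 6 weeks of age the mice received a normal diet (ND) or, for 8 weeks, a high-fat diet (HFD) with 60% fat. Each library pooled 10 ND mice or 6 HFD mice. Adhesion-related macrophages (ARMs) came from the floating adipocyte layer left after collagenase digestion, which was vortexed with beads, and stromal vascular fraction macrophages (SMs) from the pellet of digested eWAT. Both were sorted as CD45+CD11b+F4/80+ cells.

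The mesothelium is the flat epithelial sheet that covers the organs and fat pads of the body cavities, eWAT included. Its cells hold simple epithelial keratins, carry mesothelin and mucins on the free surface, and keep the transcription factor WT1 from development into adult life. Mesothelial cells lack CD45, so a gate on CD45, CD11b and F4/80 is built to leave them out. Macrophage markers were read as 10 genes (Ptprc, Itgam, Adgre1, Csf1r, Cd68, Fcgr1, Mertk, Cd14, Mrc1 and Lyz2). Their summed level was between 15770 and 19860 CPM (counts-per-million values, scaled with TMM factors of edgeR between 0.9891 and 1.017) in all 8 libraries, and the ARM over SM ratio of the group means was 0.959 on HFD and 1.01 on ND. Ptprc, Itgam and Adgre1 encode the sorted proteins CD45, CD11b and F4/80, so these values are not a test of purity.

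The mesothelial genes were a small share of these libraries. Estimated read counts summed to between 14508824 and 19040133 per library, of which the 10 genes together held between 166 and 843. After scaling to CPM the sum was 43.5 and 30.8 in the HFD ARM libraries, replicate 1 first, and 37.0 and 20.7 in the HFD SM libraries. On ND it was 43.6 and 58.5 in ARMs and 11.2 and 15.7 in SMs. The HFD groups overlapped, whereas both ND ARM libraries stood above both ND SM libraries, which were the lowest of the 8. On HFD the group means were 37.1 ± 8.96 (SD, n = 2) for ARMs and 28.8 ± 11.6 (n = 2) for SMs, and on ND 51.0 ± 10.5 (n = 2) and 13.5 ± 3.21 (n = 2), an ARM over SM ratio of 1.29 on HFD and 3.79 on ND. Counting error was smaller than this spread: the lowest sum, 166 counts in ND SM replicate 1, has an exact 95% Poisson interval of 9.54 to 13 CPM before TMM scaling. Reads were not tagged with molecular identifiers, and these intervals cover counting error only. In bulk RNA a smaller number of cells of a type and less RNA per cell cannot be told apart.

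**Figure D1:**
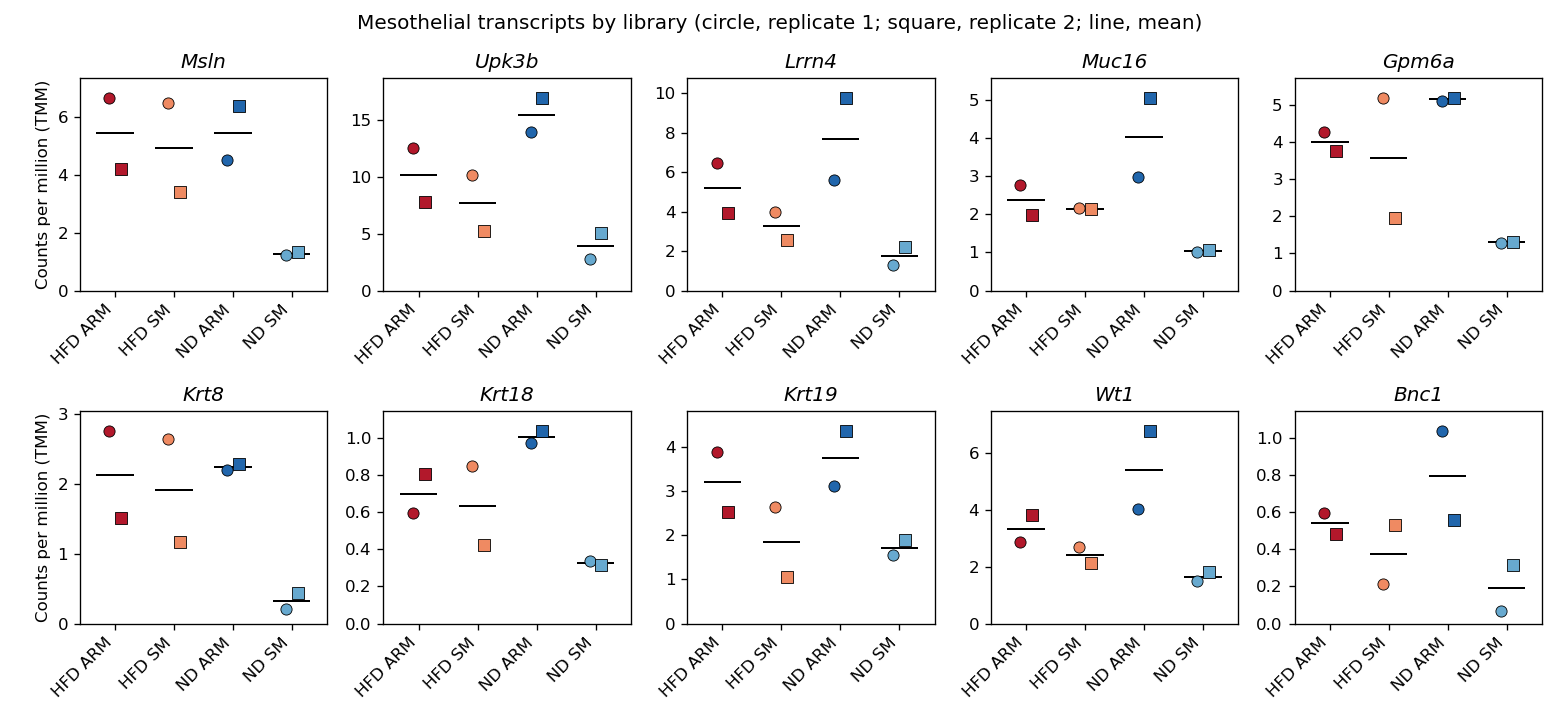
Each panel plots 1 gene in CPM (TMM) on the vertical axis against the 4 groups of cell type and diet, with a circle for replicate 1, a square for replicate 2 and a line for the mean of the 2 libraries. In ND mice the ARM points lie above the SM points in all 10 panels, and in HFD mice they do so only for Wt1.

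Before the values, the sequences upstream of 3 of the genes are shown, because they hold the 6 letters of a motif searched, which was known when they were chosen. RefSeq promoter windows (GRCm38.p6, the assembly of mm10) matched 7 of the 10 genes with 8 start sites, Gpm6a having 2. Msln, Krt19 and Wt1 were not among them. Each window covers the 250 bases before the start, printed 5′ to 3′ on the strand of the gene. The letters GGAATG, the core recognised by TEAD factors of the Hippo pathway, are in capitals, and CATTCC is the same site read on the other strand. Upk3b lies at chr5:136038246-136038495 (plus strand), Lrrn4 at chr2:132880863-132881112 (minus strand), and the upstream RefSeq start of Gpm6a at chr8:54779184-54779433 (plus strand).
Upk3b: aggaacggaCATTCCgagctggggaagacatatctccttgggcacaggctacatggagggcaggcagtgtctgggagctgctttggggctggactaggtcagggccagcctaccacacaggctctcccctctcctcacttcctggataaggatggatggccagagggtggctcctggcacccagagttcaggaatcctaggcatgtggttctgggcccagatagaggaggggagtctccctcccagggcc
Lrrn4: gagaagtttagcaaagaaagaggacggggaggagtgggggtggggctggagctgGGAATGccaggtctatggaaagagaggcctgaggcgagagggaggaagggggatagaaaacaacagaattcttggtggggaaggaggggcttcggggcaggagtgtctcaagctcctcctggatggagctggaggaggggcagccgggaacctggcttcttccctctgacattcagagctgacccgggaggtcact
Gpm6a: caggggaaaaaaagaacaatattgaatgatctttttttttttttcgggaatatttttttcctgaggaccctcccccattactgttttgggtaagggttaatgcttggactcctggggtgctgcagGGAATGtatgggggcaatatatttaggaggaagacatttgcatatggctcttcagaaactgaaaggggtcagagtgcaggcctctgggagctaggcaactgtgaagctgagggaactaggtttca
GGAATG was found on either strand in these 3 of the 8 windows, and in 12.6% of all 32851 windows of the same length. GGGCGG, the Sp1 core, was present in the window of Bnc1 alone, against 32.7% of all windows. TATAAA occurred in the downstream Gpm6a window (12.4% of all windows), and GCGTGGG, a core shared by EGR factors and WT1, in none of the 8 (4.3% of all windows). No window held letters of more than 1 of these motifs. The windows of Krt8 and Muc16, which were also called higher in ND ARMs, hold no GGAATG. A match is a description of the letters and not a bound site.

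In ND mice, 7 of the 10 mesothelial genes were called higher in ARMs than in SMs and none lower. Krt8 is 1 of the 7 and entered the fit only through its ARM libraries, and the other 6 had fold changes between 3.24 and 4.36. Calls required a change of more than 1.5-fold and, in the quasi-likelihood test of edgeR, a p below 0.05 after Benjamini-Hochberg adjustment over all genes tested in that diet. By this rule 3.55% of the 12441 genes in the ND fit were called higher. In all 10 genes both ND ARM libraries lay above both ND SM libraries in CPM, which held for 21.1% of the genes tested. With a filter of at least 10 counts in every library, 7 genes could be tested (the 6 and Krt19) and all 7 were called. The median log2 fold change over all 10, from a fit without the filter on low counts, was 1.97, and that of all genes tested was -0.0161. In HFD mice, by contrast, edgeR called 0 of the 10 genes, against 4.46% of the 13337 genes tested called higher, and DESeq2 called 0 as well. In edgeR, Lrrn4 alone had an unadjusted p under 0.05. With limma on log2(FPKM + 1) without a filter, 0 of the 9 genes tested by edgeR were called on HFD and also 0 of 9 on ND. The lowest limma adjusted p of these 9 on ND was 0.199. With the filter limma called 5 of the 7 genes it held on ND and 0 of 5 on HFD. On ND, Msln, Lrrn4, Krt8, Wt1 and Gpm6a passed this FPKM filter only through their ARM libraries. Calls of these genes there are therefore no separate support. In HFD mice both ARM libraries lay above both SM libraries in CPM for 1 of the 10 genes, Wt1, against 26.2% of the genes tested. The HFD median over all 10 genes without the filter was 0.28 on the log2 scale.

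The libraries that carry these results differ within groups. In HFD SMs the summed CPM of replicate 1 was 1.79 times that of replicate 2, and without HFD SM replicate 1 the ARM over SM ratio rose from 1.29 to 1.80 and 4 genes (Upk3b, Lrrn4, Krt19 and Gpm6a) were called higher in HFD ARMs. Without HFD SM replicate 2 the ratio was 1.0 and none was called. In ND mice the call of 7 became 5 without ND ARM replicate 2, where Wt1 and Muc16 were lost, and 6 without ND SM replicate 1, where Krt8 was lost. With 2 libraries a side, the smallest two-sided p of an exact permutation test is 0.333, and the p-values here rest on a spread shared across genes (biological coefficient of variation 5.55% in HFD mice and 8.61% in ND mice).

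Among the genes of the free surface, Msln encodes mesothelin, the membrane protein for which the cell type is best known (Entrez gene 56047, chromosome 17, 25748613 to 25754378, minus strand). All gene positions are from GENCODE vM21 on mm10. Its estimated counts were 74 and 92 in ND ARMs and 18 and 21 in ND SMs, replicate 1 first as in all the pairs that follow. On HFD they were 123 and 78 in ARMs and 122 and 64 in SMs. Every library outside the ND SM group therefore held at least 64 counts, and the HFD groups overlapped. The ND fold change was 4.26 (log2 2.09, SE 0.31, edgeR adjusted p = 0.000781, Benjamini-Hochberg), and on HFD the log2 change was 0.14 (95% confidence interval -0.52 to 0.79).

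Upk3b, which encodes an uroplakin, a membrane protein of mesothelial and urinary tract surfaces (Entrez gene 100647), lies on chromosome 5, 136038496 to 136046487, directly downstream of the window printed above. It was counted 229 and 245 times in ND ARMs against 41 and 80 in ND SMs. The HFD counts were 232 and 145 in ARMs and 192 and 99 in SMs, with the second SM library lowest. Its ND fold change of 3.94 (log2 1.98, SE 0.23) had the lowest adjusted p of the 10 genes (edgeR, Benjamini-Hochberg, 0.000197). On HFD the log2 change was 0.40 (95% interval -0.23 to 1.02).

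Lrrn4 encodes a leucine-rich repeat membrane protein used as a mesothelial marker (Entrez gene 320974, chromosome 2, 132868305 to 132880891, minus strand). Counts were 92 and 141 in ND ARMs and 19 and 35 in ND SMs. On HFD they were 119.34 and 73 in ARMs and 74.71 and 48.07 in SMs, with the decimals as deposited. The ND change was 4.36-fold (log2 2.12, SE 0.32; edgeR adjusted p = 0.000955, Benjamini-Hochberg). In HFD mice the log2 change was 0.67 (95% interval 0.05 to 1.28; edgeR adjusted p = 0.181, Benjamini-Hochberg; unadjusted p = 0.037), and the ARM and SM libraries overlapped by a narrow margin.

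Muc16 encodes a very large mucin of the glycocalyx, known in people as the tumour antigen CA-125 (Entrez gene 73732, chromosome 9, 18495455 to 18674530, minus strand). It had 49 and 73 counts in ND ARMs and 15 and 17 in ND SMs. In HFD mice the counts were 51 and 37 in ARMs and 41 and 40 in SMs, so the SM libraries fell between the ARM libraries. The ND fold change was 3.83 (log2 1.94, SE 0.36; edgeR adjusted p = 0.00433, Benjamini-Hochberg), and the HFD log2 change was 0.14 (95% interval -0.44 to 0.72).

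Gpm6a encodes a membrane glycoprotein best known from neurons and also present on mesothelium (Entrez gene 234267, chromosome 8, 54954843 to 55060871, plus strand). ND ARMs held 84 and 75 counts and ND SMs 19 and 21. HFD ARMs held 79 and 70 counts, and HFD SMs 98 and 37, the widest gap between replicates among its groups. The ND fold change was 3.95 (log2 1.98, SE 0.29; edgeR adjusted p = 0.000737, Benjamini-Hochberg), and the HFD log2 change was 0.17 (95% interval -0.61 to 0.94). Transcripts of uncertain status overlap Gpm6a, and small or noncoding genes overlap Muc16, Krt8 and Bnc1. Whether the counting used strand is not given in the sources used here, so reads of the overlapped parts cannot be assigned with certainty.

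The keratins form the intermediate filaments of simple epithelia, in which the type II keratin KRT8 pairs with the type I keratins KRT18 and KRT19. Krt8 (Entrez gene 16691) lies on chromosome 15, 101996698 to 102004482 (minus strand). Its counts were 36 and 33 in ND ARMs and 3 and 7 in ND SMs, and 51 and 28 in HFD ARMs and 50 and 22 in HFD SMs. The ND fold change of 6.76 (log2 2.76, SE 0.47; edgeR adjusted p = 0.00243, Benjamini-Hochberg) rests on 10 SM counts in all, and the gene entered the fit only through its ARM libraries. The HFD log2 change was 0.16 (95% interval -0.74 to 1.05). Krt8 has an annotated pseudogene copy, Krt8-ps, so some of its reads could belong elsewhere.

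Krt18, its partner (Entrez gene 16668), lies on the same chromosome (102028180 to 102032027, plus strand) and had few reads, with 16 and 15 counts in ND ARMs and 5 in each ND SM library. On HFD the counts were 11 and 15 in ARMs and 16 and 8 in SMs. The ND libraries did not overlap, but the change did not pass the adjusted threshold (log2 1.61, 95% interval 0.48 to 2.73; edgeR adjusted p = 0.114, Benjamini-Hochberg). Like Krt8, Krt18 passed the filter on low counts in ND mice only through its ARM libraries.

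Krt19 (Entrez gene 16669, chromosome 11, 100140810 to 100148665, minus strand) marks ductal epithelia as well as mesothelium. It had 51 and 63 counts in ND ARMs and 23 and 30 in ND SMs, and 72 and 47 in HFD ARMs and 50 and 20 in HFD SMs. The smallest ND change of the 9 tested members was that of Krt19 (log2 1.11, 95% interval 0.45 to 1.77; edgeR adjusted p = 0.0567, Benjamini-Hochberg). Without the filter it was called (edgeR adjusted p = 0.015, Benjamini-Hochberg), as it was with at least 10 counts in every library (adjusted p = 0.0421). Its HFD change, 0.79 on the log2 scale (95% interval -0.05 to 1.63), was the highest of the 9. The ND and HFD intervals overlapped over most of their length.

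Wt1 encodes the zinc finger transcription factor of the embryonic and adult mesothelium (Entrez gene 22431, chromosome 2, 105126529 to 105173616, plus strand). Counts were 66 and 98 in ND ARMs and 22 and 29 in ND SMs. On HFD they were 53 and 71 in ARMs and 51 and 40 in SMs, and after scaling Wt1 was the only gene of the 10 whose HFD libraries did not overlap. The ND fold change was 3.24 (log2 1.70, SE 0.32; edgeR adjusted p = 0.00483, Benjamini-Hochberg), and the HFD log2 change was 0.47 (95% interval -0.08 to 1.02).

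Bnc1 encodes basonuclin 1, a zinc finger protein of keratinocytes, germ cells and mesothelium (Entrez gene 12173, chromosome 7, 81966672 to 81992292, minus strand). It had 17 and 8 counts in ND ARMs, 1 and 5 in ND SMs, 11 and 9 in HFD ARMs and 4 and 10 in HFD SMs. These counts were too low for the filter within either diet, so it was not tested there, and no fold change is given.

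**Figure D2:**
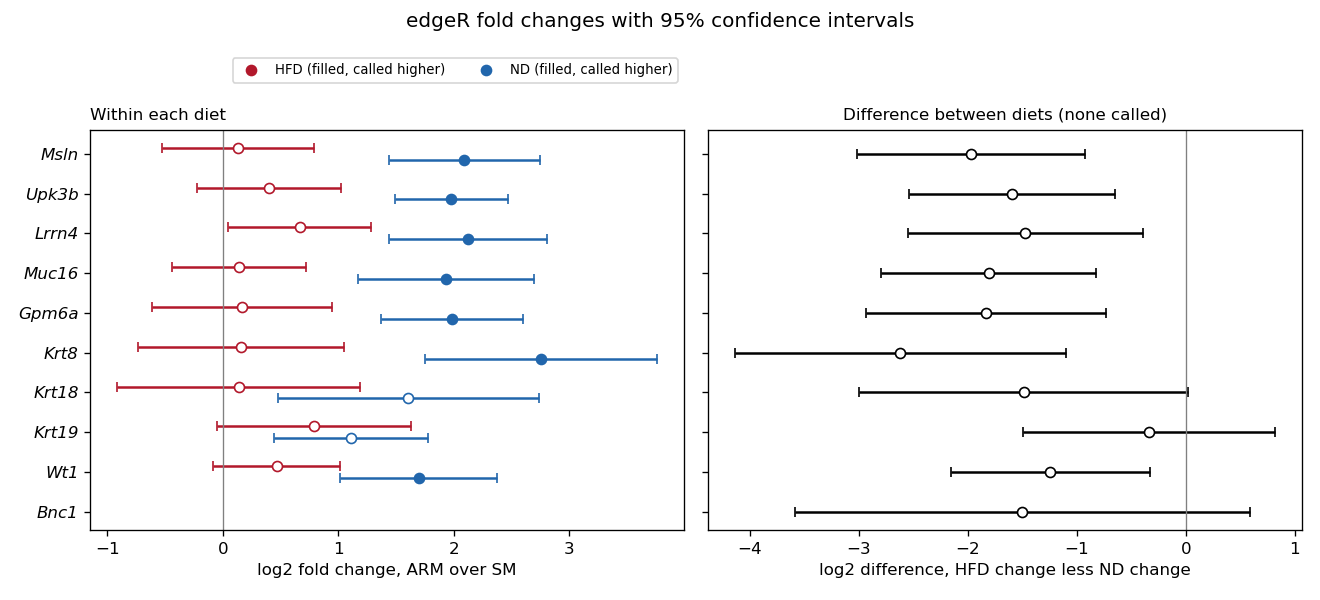
The left panel plots the log2 fold change of ARMs over SMs for each gene with its 95% confidence interval, HFD in red and ND in blue, filled where the gene was called, and the right panel the HFD change less the ND change. The 7 filled points are all ND, and in the right panel all 10 points lie below 0 with no gene called.

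Whether the ARM against SM change itself differed between diets was tested in a single edgeR fit of all 8 libraries. All 10 estimates were below 0, with a median of -1.55 on the log2 scale against -0.0255 for all genes tested, which describes a smaller change on HFD. However, 0 of the 10 passed (edgeR with Benjamini-Hochberg adjustment), against 0.0973% of the 13358 genes tested called smaller on HFD, and DESeq2 also called 0. At an unadjusted p under 0.05, 7 of the 10 were smaller on HFD, against 4.91% of all genes. Bnc1, which was tested in neither diet alone, entered this fit only through ARM libraries. The lowest adjusted p belonged to Msln, at -1.97 (95% interval -3.01 to -0.93; edgeR adjusted p = 0.163, Benjamini-Hochberg), with Muc16 next at -1.81 (95% interval -2.79 to -0.82; edgeR adjusted p = 0.184, Benjamini-Hochberg). Krt8 had the most negative estimate, -2.62 (95% interval -4.13 to -1.10; edgeR adjusted p = 0.21, Benjamini-Hochberg), and Krt19 the one closest to 0, at -0.34 (95% interval -1.49 to 0.82). Without HFD SM replicate 2, Gpm6a passed (edgeR adjusted p = 0.0296, Benjamini-Hochberg), and without ND ARM replicate 1, Muc16 did (edgeR adjusted p = 0.0378, Benjamini-Hochberg). Over the other 6 omissions of a single library none passed.

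Levels between genes and between diets were compared per length, in FPKM as deposited, without a test, because the deposited values of the 2 diets differ in form: 32.3% to 32.9% of the estimated counts were not whole numbers in the HFD libraries and 8.55% to 9.36% in the ND libraries. Upk3b had the highest FPKM of the 10 genes in 7 of the 8 libraries, between 1.46 and 8.96. Msln and Krt19 followed, with 0.62 to 3.23 and 0.88 to 3.66 FPKM. Muc16, the longest transcript, reached at most 0.19 FPKM and Bnc1 at most 0.23.

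Levels in SMs were higher on HFD for most of the genes. In 7 of the 10 genes both HFD SM libraries exceeded both ND SM libraries in FPKM, which held for 24.6% of the genes tested in both diets. Krt8 averaged 1.05 FPKM in HFD SMs and 0.195 in ND SMs, a ratio of 5.38. The ratio was 3.28 without HFD SM replicate 1 and 8.75 without ND SM replicate 2, which has 7 of the 10 ND SM counts. For Msln the averages were 2.31 and 0.645 FPKM, a ratio of 3.58 (2.47 without HFD SM replicate 1). For Krt19 the averages were 1.58 and 1.60 FPKM, a ratio of 0.991 that was 0.552 without HFD SM replicate 1. In ARMs both HFD libraries were below both ND libraries in 5 of the 10 genes (Upk3b, Krt18, Wt1, Gpm6a and Muc16), close to the 46.0% of all genes for which this held. Summed over the 10 genes in CPM, the HFD over ND ratio was 2.14 in SMs, with 1.54 to 2.75 when a library was left out, and 0.727 in ARMs.

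The make-up of the mesothelial signal was read per length. Of the summed TPM of the 10 genes, which lay between 10.95 and 52.6, Upk3b made up between 27.0% and 38.3% in the 8 libraries and Msln between 9.45% and 19.7%. The shares of Msln were 15.4% to 19.7% on HFD and 9.45% to 12.9% on ND. Msln was the only gene of the 10 whose shares did not overlap between the diets. The deposited values of the 2 diets differ in form, and no test was made. The 3 keratins made up 22.6% to 28.8% in 7 libraries and 38.0% in ND SM replicate 1, where Krt19 alone took 30.8%. Krt19 ran from 10.9% to 30.8%, Krt8 from 2.28% to 9.12% (lowest in the ND SM libraries) and Bnc1 from 0.274% to 1.36%.

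**Figure D3:**
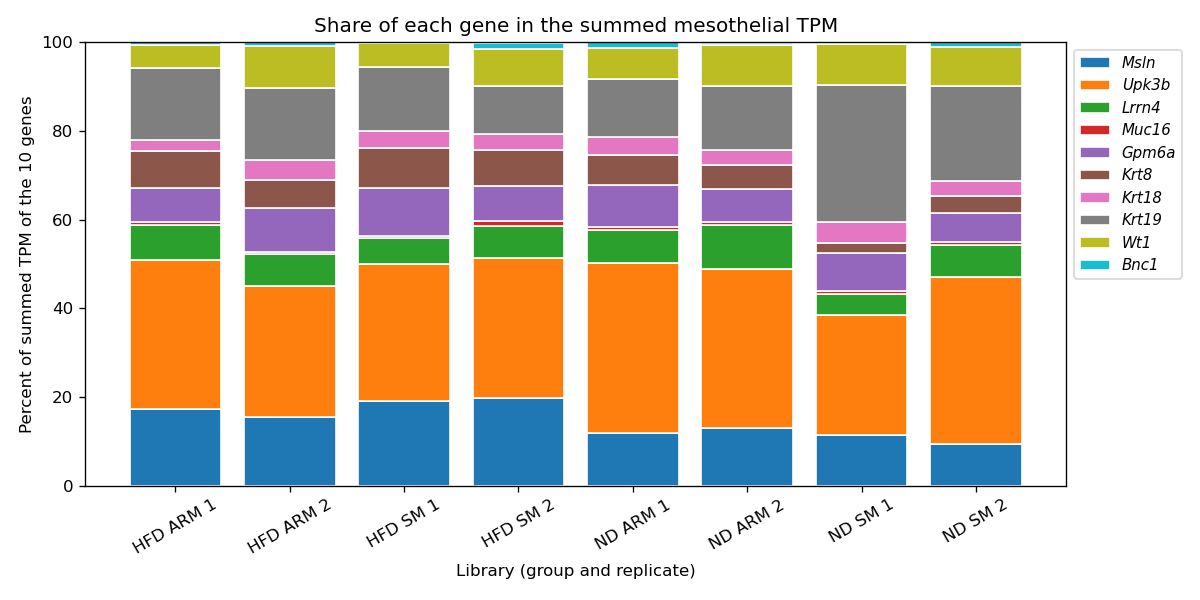
Stacked bars give, for each of the 8 libraries on the horizontal axis, the percent of the summed TPM of the 10 genes that each gene contributes. Upk3b is the widest band outside ND SM replicate 1, where Krt19 takes 30.8% and Upk3b 27.0%.

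The genes also moved together between replicates. In HFD mice replicate 1 exceeded replicate 2 in both cell types for 7 of the 10 genes, against 25.2% of the genes tested. In ND mice replicate 1 was below replicate 2 in both cell types for 8 of the 10, against 29.9%. The replicate 1 over 2 ratio of summed CPM was 1.41 for ARMs and 1.79 for SMs on HFD, and 0.745 for ARMs and 0.711 for SMs on ND, whereas that of the macrophage markers lay between 0.964 and 1.06. In HFD SMs this ratio was 1.4 for vascular endothelial genes, 1.5 for pericyte and smooth muscle genes, 1.14 for adipocyte genes and 1.03 for fibroblast and progenitor genes. In ND ARMs it was 0.522, 0.659, 0.627 and 0.668 in the same order, so that replicate 2, without which the ND calls of Wt1 and Muc16 were lost, was the higher library for all of these lists. No tie between replicates of the same number is stated in the labels beyond the number.

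Transcripts of other cells of the fat pad were compared in the same libraries, from lists of 10 adipocyte, 10 fibroblast and progenitor, 10 vascular endothelial and 8 pericyte and smooth muscle genes. Fibroblast and progenitor genes had a summed CPM of 1058 to 1583 in ND ARMs, 476 to 586 in ND SMs, 959 to 1128 in HFD ARMs and 699 to 720 in HFD SMs. Like the mesothelial sum, theirs had a higher ARM over SM ratio on ND (2.49, 8 of 10 genes called higher) than on HFD (1.47, 4 of 10). The ratio of the adipocyte genes was 1.91 on ND (8 of 10 called) and 3.03 on HFD (9 of 10). For vascular endothelial genes it was 1.72 on ND (1 of 10 called, Tek) and 2.72 on HFD (9 of 10). For pericyte and smooth muscle genes the ratios were 1.82 and 2.03 (2 and 4 of 8 called). Of all genes tested, 3.55% were called higher on ND and 4.46% on HFD. In the test of the difference between diets, edgeR called Plin4 and Lep of the adipocyte genes and none of the 10 fibroblast, 10 vascular and 8 pericyte genes, of which 9, 3 and 0 had an unadjusted p under 0.05. Of all 13358 genes in this test, 9 were called larger on HFD and 1017 had an unadjusted p under 0.05. Without the filter Col3a1 passed (log2 -0.84, edgeR adjusted p = 0.0431, Benjamini-Hochberg), and the fibroblast genes called on HFD fell from 4 to 0 and the vascular genes from 9 to 6, while the vascular genes called on ND rose from 1 to 4 and the pericyte genes were 3 on either diet.
Of 6 lymphatic endothelial genes, 3 were called higher in ARMs on ND and 3 on HFD, against 3.55% and 4.46% of all genes tested. The genes called on ND, and Reln on HFD, entered the fit only through their ARM libraries. On HFD Mmrn1 and Flt4, the latter with 15 and 7 counts in SMs, also needed an ARM library to pass the filter. Mmrn1, a multimerin of lymphatic vessels, had 31 and 17 counts in ND ARMs and 0 and 2 in ND SMs, and 43 and 30 in HFD ARMs and 7 and 15 in HFD SMs. Reln had 18 and 14 against 0 and 2 counts on ND, and 23 and 19 against 4 and 2 on HFD. The chemokine gene Ccl21a, which has near-identical copies, had 41.63 and 42.18 against 0 and 5.48 on ND, and 56.62 and 79.3 against 13.3 and 55.94 on HFD, where it was not called. Flt4 was the third gene called on HFD, and all 3 HFD calls were lost without the filter. No lymphatic gene passed for the difference between diets by edgeR, with 3 at an unadjusted p under 0.05, against 1017 of all 13358 genes tested. Prox1, the defining transcription factor, was called in neither diet, and Lyve1, which macrophages also express, made up most of the summed level. Lyve1 was 0.67-fold in HFD ARMs (edgeR adjusted p = 0.00134, Benjamini-Hochberg), short of the fold change needed for a call. The part of these cells in the mesothelial values was not tested.

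**Figure D4:**
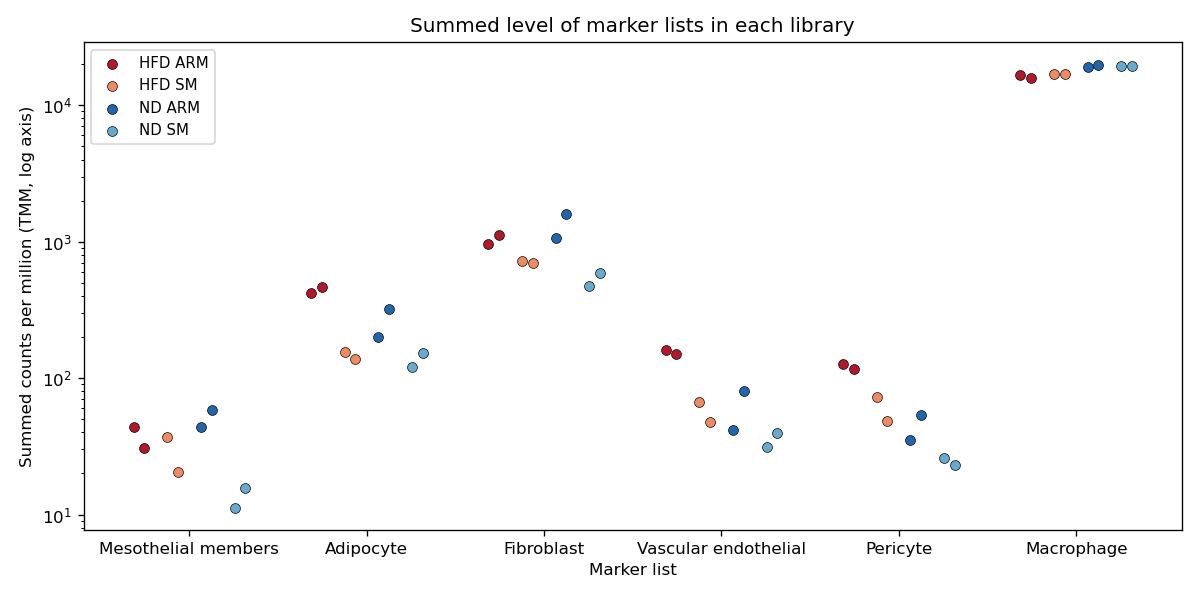
Points give the summed CPM (TMM) of 6 marker lists in each library, on a log axis, colored by group. The mesothelial sums lie between 11.2 and 58.5 and are lowest in the ND SM libraries, while the macrophage sums stay between 15770 and 19860.

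Keratins are shared with other epithelia, so markers of these were also read. Of 9 genes of other epithelia, the 4 listed on HFD summed to 0.795 to 1.03 CPM and the 5 listed on ND to 0.315 to 0.486 CPM. Epcam, the defining epithelial adhesion gene, was read on ND only, where it had 1 count in ARM replicate 1 and 0 in the other libraries. Of 8 genes of the epididymal epithelium, which adjoins this fat pad, the 4 listed on HFD summed to at most 0.479 CPM and the 3 listed on ND to at most 1.07 CPM, the latter in ND SM replicate 2. None of the epithelial genes reached the filter for testing.

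A further list of 15 mesothelial genes, less specific than the 10, was read by counts. In ND mice 13 of the 15 were tested, of which 5 were called higher in ARMs and none lower, against 3.55% of all genes tested called higher. They were Upk1b, another uroplakin (2.71-fold, edgeR adjusted p = 0.0203, Benjamini-Hochberg), and Pkhd1l1, a membrane protein (5.23-fold, adjusted p = 0.000159). The others were Igfbp6, which binds insulin-like growth factors (3.27-fold, adjusted p = 0.000236), Efemp1, a fibulin of the matrix (2.91-fold, adjusted p = 0.000166), and Pdpn, podoplanin (2.32-fold, adjusted p = 0.0013). In HFD mice 3 of the 15 were called higher, against 4.46% of all genes tested. These were Cldn15 (1.70-fold, edgeR adjusted p = 0.0165, Benjamini-Hochberg), Tjp1 (2.40-fold, adjusted p = 0.00181) and Cdh2 (1.84-fold, adjusted p = 0.0471), which encode junction proteins that other cells also carry. Without the filter these 3 HFD calls were lost, and 7 of the 15 were called on ND, with Nkain4 and Rspo1 added. On HFD all 15 were tested, with a median log2 change of 0.33. The difference between diets passed for none of the 15 by edgeR, and its median was -1.04. At an unadjusted p under 0.05 there were 6, against 1017 of all 13358 genes tested. Without the filter Pkhd1l1 (log2 -1.91, edgeR adjusted p = 0.0345, Benjamini-Hochberg) and Igfbp6 (log2 -1.33, adjusted p = 0.045) passed, both with the smaller change on HFD. Igfbp6, Efemp1 and Pdpn are also expressed by fibroblasts and other stromal cells.

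Likeness to the sum of the 10 was ranked among 12334 genes by Pearson's r of log2(CPM + 1) over the 8 libraries. The highest were Spock2 (0.983), Chrdl1 (0.976), Efs (0.972), Steap2 (0.972), Pkhd1l1 (0.972) and Efemp1 (0.971). In ND SMs Efs had 0.27 and 0.38 CPM and Steap2 0.13 and 0.31, so both passed the ND filter only through ARMs. The 8 points share libraries and depth, and no test was made. Spock2, which encodes a matrix proteoglycan, had 6.35 and 8.61 CPM in ND ARMs, 1.75 and 2.33 in ND SMs, 7.72 and 5.37 in HFD ARMs and 5.34 and 3.92 in HFD SMs. Chrdl1, which encodes an antagonist of bone morphogenetic proteins, had 3.24 and 5.0 CPM in ND ARMs and 0.808 and 1.2 in ND SMs. Among the 15 further genes, Igfbp6 ranked 9 (r = 0.965), Nkain4 23 (0.941) and Upk1b 38 (0.925). Bcam (r = -0.718) and Aldh1a2 (r = -0.23) did not follow the sum. Within the 10, r with the sum was between 0.858 (Krt19) and 0.988 (Upk3b) over the 9 genes ranked, each of which is part of that sum.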

How the data were processed

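Per the labels, libraries were built from sorted macrophages, sequenced on an Illumina platform and processed on genome build mm10. The aligner, the counting program and the annotation are not given in the sources used here. For each diet the authors deposited estimated counts, FPKM and TPM per gene and library, and their average columns were not used. Groups came from the sample titles.

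Estimated counts were rounded and fitted for each diet with edgeR 4.0.16 in R 4.3.3 (TMM, filterByExpr, quasi-likelihood test), and the difference between diets in 1 fit of all 8 libraries, over the genes in both tables. The rule for calls was a fold change over 1.5 and a Benjamini-Hochberg adjusted p under 0.05. Named were all 10 members, the genes of the further mesothelial and retinoic acid lists called in a diet, and the 6 other genes most correlated with the summed CPM; the remaining genes in the text were chosen after their values were seen. The members and lists were chosen with earlier results of these data known. Alternatives used DESeq2 1.42.0, limma 3.58.1 on log2(FPKM + 1), other scalings and filters, the replicate block and left-out libraries; DESeq2 for the difference between diets and the list calls without the filter were chosen after seeing the data, as were the SM diet ratios with a library left out. Replicates differed beyond sampling noise (mean chi-square per gene between 4.06 and 9.59) and were separate pools. On simulated data edgeR recovered 87.9% of 2-fold and 100% of 4-fold changes among the 13337 genes tested in HFD mice, 84.7% and 99% among 12441 in ND mice, and 75% and 93.9% among 13358 for the difference between diets, where it made 9 false calls. Recovery at the counts and the replicate spread of the 10 members was not tested. Gene positions came from GENCODE vM21 and promoter windows from RefSeq. Precision was limited by low counts, given beside each gene.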

Additional observations from a re-analysis of the deposited data

How the results depend on the processing

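Settings were changed singly. In HFD mice the 0 members called became 1 (Lrrn4) with the replicate block and with the rule of the methods section (log2 change over 0.6, unadjusted p under 0.05), and was 0 to 4 with a library left out. The 595 genes called higher became 167 without the filter, 319 with limma on log2(FPKM + 1), 382 with 0.1 in place of 1 in the logarithm, 33 with limma without the filter, 922 with the methods rule and 198 to 587 with a library left out. In ND mice the 7 members called became 0 with limma on log2(FPKM + 1) without the filter (lowest adjusted p of a member 0.199), 8 without the filter in edgeR (Krt19 added) and 5 to 8 with a library left out, and the 442 genes became 273 with DESeq2, 719 with the replicate block, 202, 208 and 0 with limma (in the order above), 794 with the methods rule and 171 to 617 with a library left out. For the difference between diets the 13 genes called smaller on HFD became 36 with DESeq2, 25 without the filter, 36 with the replicate block and 0 to 72 with a library left out, and 0 to 1 members were called. The ARM over SM ratio of summed CPM ranged from 1.0 to 1.80 on HFD and from 3.24 to 4.56 on ND with a library left out. Signs turned for members in HFD mice with a library left out, where log2 changes ranged from -0.25 to 0.67 for Msln, -0.001 to 0.95 for Upk3b, -0.34 to 0.87 for Krt8, -0.27 to 0.72 for Krt18, -0.37 to 1.03 for Gpm6a and -0.11 to 0.37 for Muc16, and for Krt19 in the difference between diets (-0.85 to 0.46). The causes were not tested. Replicate numbers are shared by the groups but mark nothing else in the labels; over all genes the deviations of same-numbered ARM and SM libraries correlated at 0.0181 on HFD and 0.279 on ND, and the replicate block raised the ND members called from 7 to 9 (Krt19 and Krt18 added). With 1 library left in a group, it is assumed to vary like the others.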

Other observations

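Retinoic acid synthesis is a known activity of mesothelium, so 16 genes of retinoid handling were read, 15 of them listed. Aldh1a2, a retinaldehyde dehydrogenase strongly expressed in mesothelium, was not called in either diet, with 709 and 678 counts in ND ARMs, 666 and 755 in ND SMs, 455 and 507 in HFD ARMs and 589 and 555 in HFD SMs. On HFD both ARM libraries were below both SM libraries (log2 -0.23, 95% interval -0.41 to -0.04, edgeR adjusted p = 0.131), and on ND the groups overlapped (log2 -0.03). Its paralogs Aldh1a1 (1.96-fold, adjusted p = 0.0199, edgeR with Benjamini-Hochberg adjustment) and Aldh1a3 (2.61-fold, adjusted p = 0.00475) were called higher in ND ARMs. In HFD mice Rbp4, a retinol carrier that adipocytes also secrete, was the gene called (4.43-fold, adjusted p = 0.00119). Of all genes tested, 3.55% were called higher on ND and 4.46% on HFD. No retinoid gene passed for the difference between diets by edgeR, with 1 at an unadjusted p under 0.05, against 1017 of all 13358 genes tested.

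Large peritoneal macrophages live in the cavity that the mesothelium lines, and 9 of their genes were read as well. Gata6, their defining transcription factor, had 24 and 37 counts in ND ARMs, 15 and 7 in ND SMs, 25 and 29 in HFD ARMs and 30 and 15 in HFD SMs, and was called in neither diet (adjusted p = 0.0989 on ND and 0.721 on HFD, edgeR with Benjamini-Hochberg adjustment). Selp, shared with endothelium and platelets, was the gene of this list called on HFD (2.81-fold, edgeR adjusted p = 0.000514), where 4.46% of all genes tested were called higher. On ND edgeR called none, against 3.55% of all genes tested. At an unadjusted p under 0.05 there were 3 on ND, against 1858 of all 12441 genes tested. Without the filter on low counts Gata6 (log2 1.46, edgeR adjusted p = 0.0309) and Tgfb2 (log2 1.25, adjusted p = 0.037) were called on ND and Selp was not called on HFD. Which cells held the Gata6 reads was not tested. Of the 9 genes, 7 had a log2 change above 0 on HFD and 6 on ND. The median log2 change of all genes tested was -0.00638 on HFD and -0.0161 on ND. Vsig4 (0.70-fold, edgeR adjusted p = 0.00656, Benjamini-Hochberg) and Timd4 (0.80-fold, adjusted p = 0.0605) were lower in both HFD ARM libraries, and neither was called. Timd4 dominates the summed CPM of the list, whose ARM over SM ratio was 0.917 on HFD and 0.953 on ND.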
